A study of Mus musculus with 208 samples.

Results

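Fkbp5, Sgk1, Tsc22d3, Zbtb16, Cdkn1a, Errfi1, Ddit4, Pdk4 and Plin4 are mouse genes known to be induced by glucocorticoids. All 9 had a row in the count table of each brain region, out of 46403 genes listed, and all 9 were tested in every region. Their levels were followed in 208 RNA libraries, each made from the sorted NeuN+ neuronal nuclei of 1 region of 1 adult C57BL/6NTac wild-type mouse. By the numbers in their labels the libraries came from 71 mice of 18 litters, with 107 libraries from females and 101 from males. Tissue was punched 2 h after an injection of lipopolysaccharide (LPS) or saline, from both sides of the hippocampus, the prefrontal cortex (PFC) and the striatum and from neighbouring sites of the hypothalamus. The mice had been exposed to morphine or saline around birth. In the morphine arm, dams carried a minipump that delivered 10 mg/kg/day from before mating, and the pups were injected with 10 mg/kg morphine 2 times a day from postnatal day 1 to 14. Pups of both arms were cross-fostered at birth to drug-naive dams. A group name gives the early exposure first and the adult challenge after it, so the 4 groups are SAL-SAL, SAL-LPS, MOR-SAL and MOR-LPS.

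In that order, the groups held 11, 12, 14 and 14 libraries in the hypothalamus, 13, 14, 12 and 16 in the hippocampus, 10, 10, 12 and 16 in the PFC, and 13, 15, 8 and 18 in the striatum. Each level below is a normalized CPM, a gene's count over the library total in the usual CPM unit, with totals scaled by edgeR's TMM factors. A group's level is written as lowest, median and highest library. A gene was called when its p-value in edgeR's quasi-likelihood test, adjusted by Benjamini-Hochberg over all genes tested in that region, was under 0.05. Fold changes are on the log2 scale with their standard error (SE).

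LPS, a cell wall component of Gram-negative bacteria, is sensed by Toll-like receptor 4 and triggers the release of inflammatory cytokines. These activate the hypothalamic-pituitary-adrenal axis, in which neurons of the hypothalamus release corticotropin-releasing hormone and the adrenal glands in turn secrete corticosterone, the main glucocorticoid of mice. Corticosterone enters the brain and binds the glucocorticoid receptor (Nr3c1) and the mineralocorticoid receptor (Nr3c2). The hormone-bound receptor moves to the nucleus and binds DNA elements made of a pair of hexamers close to AGAACA, facing each other across a gap of 3 bases. The 9 genes carry out different parts of the response: restraint of the receptor itself (Fkbp5), ion transport and kinase signalling (Sgk1), control of other transcription factors (Tsc22d3, Zbtb16), restraint of growth (Cdkn1a, Errfi1, Ddit4) and fuel use (Pdk4, Plin4). Several also answer other stress signals, Cdkn1a for example to p53 and Ddit4 to low oxygen.

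The genes lie on 6 chromosomes of the mm10 build. Fkbp5 spans chr17:28399094-28517527 and Cdkn1a chr17:29090976-29100727 on the opposite strand, with Plin4 at chr17:56100591-56109803. Sgk1 lies at chr10:21882184-21999903, Ddit4 at chr10:59949669-59951834, Zbtb16 at chr9:48654297-48836222, Errfi1 at chr4:150853919-150868892, Pdk4 at chr6:5483351-5496309 and Tsc22d3 at chrX:140539528-140600659. Exons of Cdkn1a overlap those of AC167363.2 on the other strand and exons of Plin4 overlap those of Hdgfl2. The use of strand in the counting is not given in the sources used here, so reads over the shared stretches cannot be told apart.

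RefSeq start sites gave 17 promoter windows, each of 250 bases before to 50 after a start on GRCm38.p6, for 8 of the 9 genes; Zbtb16 has no entry in that table. The windows were searched on both strands for the hexamer AGAACA, for the full element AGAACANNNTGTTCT, which contains 2 such hexamers, and for the cyclic AMP response element TGACGTCA. The 250 bases before the start are shown for the windows that held the full element, a single hexamer near the start of the longest Tsc22d3 transcript, or the cyclic AMP element, and for Cdkn1a, which differed most widely after LPS. Capitals mark the letters that matched.
Sgk1, chr10:21993640-21993889, + strand: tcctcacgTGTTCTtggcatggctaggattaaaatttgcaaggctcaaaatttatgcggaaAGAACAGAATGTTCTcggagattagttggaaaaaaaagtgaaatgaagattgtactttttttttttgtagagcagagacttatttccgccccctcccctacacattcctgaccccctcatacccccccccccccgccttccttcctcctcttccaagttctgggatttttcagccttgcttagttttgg
Tsc22d3, chrX:140600523-140600772, - strand: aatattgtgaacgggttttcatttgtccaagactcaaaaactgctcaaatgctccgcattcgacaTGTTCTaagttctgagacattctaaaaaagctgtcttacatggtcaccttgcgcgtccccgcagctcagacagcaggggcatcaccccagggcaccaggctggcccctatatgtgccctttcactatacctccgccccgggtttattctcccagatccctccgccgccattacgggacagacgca
Errfi1, chr4:150854820-150855069, + strand: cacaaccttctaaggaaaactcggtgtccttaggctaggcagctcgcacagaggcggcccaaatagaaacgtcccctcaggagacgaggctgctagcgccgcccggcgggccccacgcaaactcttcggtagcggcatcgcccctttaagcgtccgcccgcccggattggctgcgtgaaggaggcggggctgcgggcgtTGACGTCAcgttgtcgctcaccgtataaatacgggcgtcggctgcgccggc
Cdkn1a, chr17:29093519-29093768, + strand: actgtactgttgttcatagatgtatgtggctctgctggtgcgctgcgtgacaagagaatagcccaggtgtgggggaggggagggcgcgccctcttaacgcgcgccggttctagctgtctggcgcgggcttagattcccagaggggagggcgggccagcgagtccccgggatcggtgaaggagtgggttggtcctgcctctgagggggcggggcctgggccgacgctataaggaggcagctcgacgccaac
The Sgk1 window held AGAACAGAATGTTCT at position -189 from the start. Only 3 of all 32851 windows in the table, or 0.00913%, held the full element. At least 1 hexamer was present in 4 windows, of Sgk1 and Tsc22d3 and including the one with the full element, and in 19.0% of all windows. An element with up to 2 of its 12 letters changed was present in 2 Sgk1 windows and in 1.84% of all windows. TGACGTCA stood in the Errfi1 window at position -51 and in 1.79% of all windows. The Cdkn1a window held none of these letters. A match in 300 bases is a description of the sequence, not a bound site.

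Library totals ranged from 7673 to 35077048 counts in the hypothalamus, 227025 to 24071488 in the hippocampus, 3056648 to 21988203 in the PFC and 5954700 to 92945090 in the striatum. In total 8 libraries had under 0.5 of their region's median total (3, 2, 3 and 0 by region). The shallowest, a SAL-LPS hypothalamus library, had all 9 genes at 0, and a count of 0 there allows up to 391 CPM of the library total, before TMM scaling, against 0.541 in a library of median depth. In 9 libraries (3, 4, 2 and 0) the Y-linked genes went against the labelled sex. Leaving out the low-depth libraries ended none of the members' calls. Without the 9 libraries that went against their label, Errfi1 (0.96 ± 0.31, adjusted p = 0.054) and Plin4 (0.80 ± 0.26, adjusted p = 0.058) were no longer called after LPS in the hypothalamus of morphine-exposed mice, and Cdkn1a (2.57 ± 0.54, adjusted p = 0.033) was called in their hippocampus.

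The hypothalamus table differed from the other 3 in which genes it counted. Of 16928 genes with at least 500 summed counts in the hypothalamus, 3071 were at 0 in every library of the hippocampus, PFC and striatum, among them the astrocyte marker Gfap, the neuronal Nefl and the microglial P2ry12. Of the genes whose exons lie wholly under the span of another gene, 2325 of 2478 (93.8%) were at 0 in those 3 regions, against 2 of 7824 (0.026%) with no exon under another gene. Among the latter, genes with over 98% of their span in introns had median levels 2.35, 2.36 and 2.7 log2 units above the hypothalamus in the hippocampus, PFC and striatum, while genes without introns lay below it, with medians of -0.92, -0.86 and -1.32 in the same order. No member was at 0 in a region, but introns make up 97.1% of the Zbtb16 span and 19.0% of the Ddit4 span. Levels are therefore compared within a region only. Where effects of LPS are set side by side across regions, the hypothalamus may rest on another part of each gene than the rest.

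The neuronal label was checked against 6 neuronal markers, whose summed level had a median of 2005 to 2325 normalized CPM in the 4 groups of the hypothalamus. Markers of other cells were present too. The sum of 8 oligodendrocyte markers had group medians from 294 to 525.99 across the 4 regions, but reached 6440 in single libraries. All 8 were above 0 in every group. The sum of 5 thalamic markers had striatal medians of 2659, 4510, 4516 and 3299 in SAL-SAL, SAL-LPS, MOR-SAL and MOR-LPS. In the hypothalamus these medians were 379, 224, 181 and 228, and the highest SAL-SAL library reached 4583. The part of thalamic nuclei in the members' levels was not tested. These libraries are bulk samples, so fewer cells of a type and less RNA per cell cannot be told apart.

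LPS was followed by higher levels of 8 of the 9 genes in the hypothalamus of morphine-exposed mice, of 3 in their striatum and of 1, Cdkn1a, in the hippocampus of saline-exposed mice. These counts were 4, 0 and 0 with litter as a block, 3, 1 and 0 with a correlation within litters (limma-voom), and 0, 0 and 1 with glial marker sums as covariates. Astrocyte markers moved with the lead result, 11 of 14 MOR-LPS hypothalamus libraries lying above the highest MOR-SAL library. Endothelial markers moved with the hippocampal call, 9 of 14 SAL-LPS libraries lying above the highest SAL-SAL library. No member was called lower after LPS, beside 627 of 28859 and 127 of 23426 genes called lower in the hypothalamus and striatum of morphine-exposed mice and 269 of 22076 in the hippocampus of saline-exposed mice. Sgk1 in the striatum of morphine-exposed mice and Pdk4 in the PFC of saline-exposed mice had negative estimates with an unadjusted p under 0.05 (adjusted p = 0.24 and 0.12). In the hypothalamus of morphine-exposed mice Cdkn1a rose 6.46-fold, Zbtb16 4.11-fold, Ddit4 3.04-fold, Sgk1 2.89-fold, Fkbp5 2.75-fold, Errfi1 2.01-fold and Plin4 1.75-fold, and Pdk4 also rose from a level near 0. Tsc22d3 alone did not pass the test there. Higher calls made up 4.1% of the 28859 genes tested in that comparison. The median log2 fold change was 1.53 over the members and 0.00 over all genes. In the striatum of the same exposure, Cdkn1a rose 6.37-fold, Ddit4 3.71-fold and Fkbp5 1.78-fold, where higher calls made up 0.845% of genes. The medians were 1.08 over the members and 0.11 over all genes.

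In saline-exposed mice no member was called in the hypothalamus, where 0.0693% of all genes were called higher, in the PFC, where 0% were, or in the striatum, where 0.00854% were. DESeq2 called 0, 0 and 1 there, and 2, 3 and 2 members had an unadjusted p under 0.05. In the hippocampus Cdkn1a was the 1 member called, beside 1.33% of all genes, by edgeR and DESeq2 alike. Of the morphine-exposed comparisons, the hippocampus and PFC held no called member, beside 0.109% and 0.0138% of all genes called higher. DESeq2 called 0 in each, and 3 and 4 members had an unadjusted p under 0.05. The members' median log2 fold change after LPS in saline-exposed mice was 0.52 in the PFC, 0.31 in the striatum, 0.20 in the hypothalamus and 0.06 in the hippocampus. In morphine-exposed mice it was 0.56 in the hippocampus and 0.85 in the PFC. Over all genes these medians lay between -0.01 and 0.07. The 2 exposures were compared with their own saline groups, and the difference between their responses is tested further on.

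**Figure D1:**
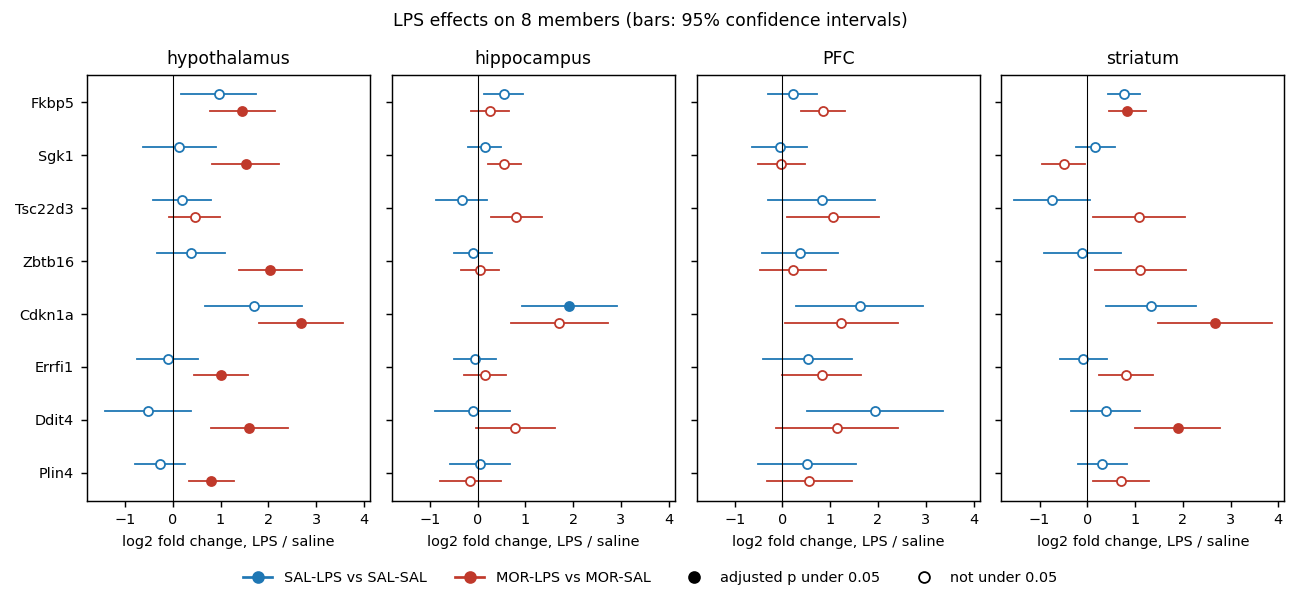
The log2 fold change of LPS over saline (x axis) for 8 members in the 4 regions, with saline-exposed and morphine-exposed mice as separate points and bars of the 95% interval; filled points had an adjusted p under 0.05. Pdk4, near 0 in many libraries, is left out, and Cdkn1a lies to the right of 0 in all 8 comparisons.

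Averaged over the exposures, LPS was followed by higher Cdkn1a in 3 regions and higher Fkbp5 in 2. Cdkn1a rose by 2.19 ± 0.34 (SE) in the hypothalamus (adjusted p = 7.0e-05), 1.82 ± 0.36 in the hippocampus (adjusted p = 0.0047) and 2.00 ± 0.38 in the striatum (adjusted p = 0.0032), and measured 1.42 ± 0.46 in the PFC (adjusted p = 0.096). Fkbp5 rose by 1.21 ± 0.27 in the hypothalamus (adjusted p = 0.0066) and 0.80 ± 0.13 in the striatum (adjusted p = 0.00026). It measured 0.40 ± 0.14 in the hippocampus (adjusted p = 0.10) and 0.53 ± 0.18 in the PFC (adjusted p = 0.11). Zbtb16 (1.21 ± 0.25, adjusted p = 0.0042) and Pdk4 (2.697 ± 0.69, adjusted p = 0.014) also rose in the hypothalamus, and Ddit4 in the striatum (1.14 ± 0.29, adjusted p = 0.030). The counts were thus 4, 1, 0 and 3 of 9 members in the hypothalamus, hippocampus, PFC and striatum, beside 3.01%, 2.24%, 1.02% and 1.14% of all genes called higher. DESeq2 gave the same 4 counts, with litter as a block they were 2, 1, 0 and 1, and in the PFC 5 members had an unadjusted p under 0.05.

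Cdkn1a encodes the cyclin-dependent kinase inhibitor p21. Pdk4 aside, which rests on few counts, it had the largest fold change of the members in the hypothalamus and striatum of morphine-exposed mice. Its hypothalamic level was 1.15, 3.94 and 8.88 in SAL-SAL, and 0, 9.14 and 43.4 in SAL-LPS. It was 0.144, 5.81 and 8.88 in MOR-SAL, and 4.95, 11.1 and 132 in MOR-LPS. Of the 14 MOR-LPS libraries, 10 lay above the highest MOR-SAL library, and of the 12 SAL-LPS libraries 6 lay above the highest SAL-SAL library. The log2 fold change was 2.69 ± 0.45 in morphine-exposed mice (95% interval 1.81 to 3.57, adjusted p = 0.00018) and 1.70 ± 0.52 in saline-exposed mice (adjusted p = 0.088). The upper tail of MOR-LPS was long, with 3 libraries above 80 and a median of 11.1.

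The hippocampus showed the opposite order of calls for Cdkn1a. Levels were 0, 3.19 and 11.2 in SAL-SAL and 3.23, 15.6 and 31.3 in SAL-LPS, where all 14 libraries lay above the SAL-SAL median and 10 above its highest library. They were 0, 3.195 and 38.4 in MOR-SAL and 1.98, 8.87 and 88.2 in MOR-LPS, where 15 of 16 lay above the MOR-SAL median and 3 above its highest library. Cdkn1a rose by 1.92 ± 0.51 on the log2 scale in saline-exposed mice (adjusted p = 0.031) and measured 1.71 ± 0.52 in morphine-exposed mice (adjusted p = 0.088), so the estimates differed by less than their errors. The call in saline-exposed mice was lost with litter as a block (2.19 ± 0.47, adjusted p = 0.056), with edgeR's filterByExpr filter (adjusted p = 0.12) and without litter 3, 4, 5, 9 or 11. It stood with the block when the low-depth libraries were also left out (2.17 ± 0.48, adjusted p = 0.041). The sum of 7 endothelial markers measured 22.5, 28.0 and 33.2 in SAL-SAL and 18.7, 34.6 and 52.0 in SAL-LPS. There 9 of 14 SAL-LPS libraries lay above the highest SAL-SAL library, against 1 of 16 in the morphine exposure. The part of these markers in the call was not tested.

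In the striatum Cdkn1a measured 1.42, 3.46 and 8.67 in SAL-SAL, 0.991, 6.95 and 31.2 in SAL-LPS, 0, 3.30 and 16.5 in MOR-SAL, and 2.699, 15.7 and 103 in MOR-LPS. The LPS groups were shifted up and overlapped their saline groups, with 6 of 15 and 9 of 18 libraries above the highest saline library. As log2 fold changes, the values were 2.67 ± 0.61 in morphine-exposed mice (adjusted p = 0.020) and 1.33 ± 0.48 in saline-exposed mice (adjusted p = 0.20). In the PFC, levels were 0, 8.74 and 15.8 in SAL-SAL, 1.36, 21.3 and 82.9 in SAL-LPS, 0, 11.2 and 39.7 in MOR-SAL, and 3.01, 21.6 and 308 in MOR-LPS. The log2 fold changes, 1.62 ± 0.68 and 1.23 ± 0.60, did not pass the test (adjusted p = 0.26 and 0.36). Cdkn1a had a positive log2 fold change in all 8 comparisons under each of the alternatives tried.

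**Figure D2:**
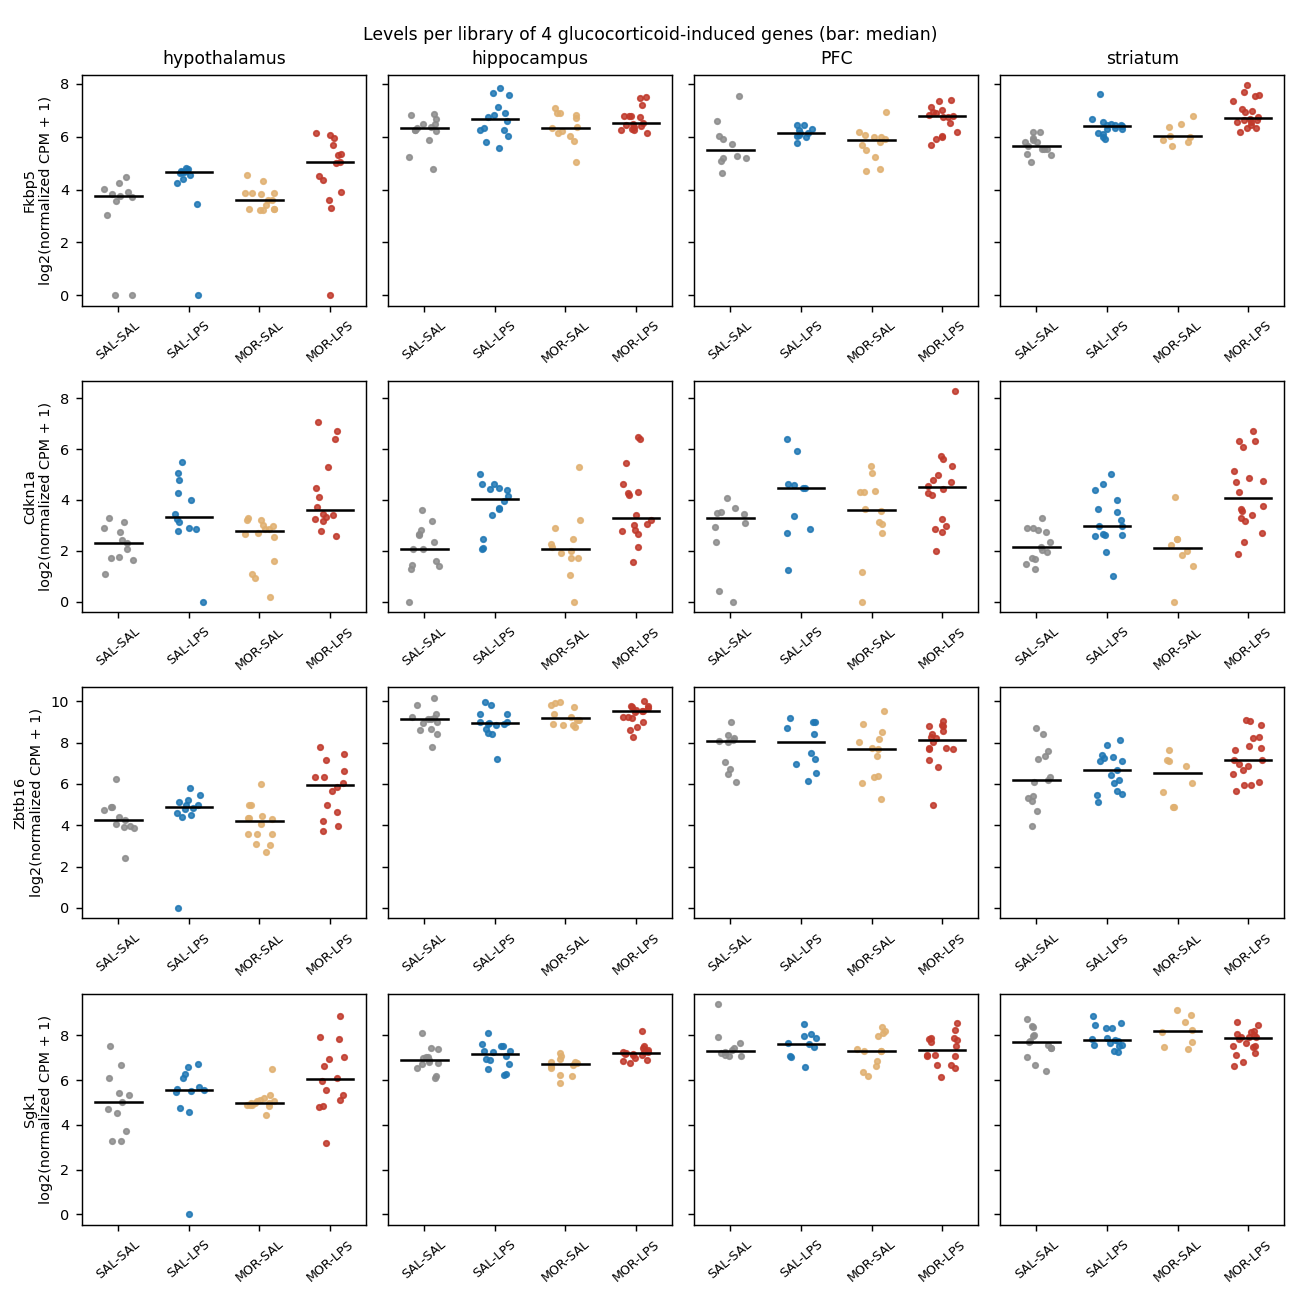
Levels of Fkbp5, Cdkn1a, Zbtb16 and Sgk1 as log2(normalized CPM + 1) (y axis) in the 4 groups of each region, 1 point per library and a bar at the group median. Fkbp5 in the striatum is higher in the LPS groups with few outlying points, whereas Cdkn1a in MOR-LPS has a long upper tail that reaches 308 normalized CPM in the PFC.

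Fkbp5 encodes a co-chaperone of Hsp90 that lowers the affinity of the glucocorticoid receptor for its hormone and so forms a short feedback loop. Of the members, it separated the LPS groups from the saline groups most evenly in the striatum. Levels there were 32.2, 48.7 and 72.4 in SAL-SAL and 60.1, 83.6 and 193 in SAL-LPS, with all 15 SAL-LPS libraries above the SAL-SAL median and 11 above its highest library. They were 49.6, 63.5 and 108 in MOR-SAL and 71.7, 103 and 248 in MOR-LPS, with all 18 MOR-LPS libraries above the MOR-SAL median and 8 above its highest. Low values were absent from both LPS groups. The log2 fold change was 0.84 ± 0.20 in morphine-exposed mice (adjusted p = 0.026) and 0.77 ± 0.17 in saline-exposed mice (adjusted p = 0.071). With litter as a block the former was 0.74 ± 0.24 (adjusted p = 0.21).

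In the hypothalamus Fkbp5 measured 0, 12.4 and 21.4 in SAL-SAL, 0, 24.1 and 26.8 in SAL-LPS, 8.34, 11.1 and 22.3 in MOR-SAL, and 0, 31.6 and 69.8 in MOR-LPS. In each exposure 8 LPS libraries (of 12 and of 14) lay above the highest saline library, while 1 library of each LPS group was at 0. The log2 fold change was 1.46 ± 0.35 in morphine-exposed mice (adjusted p = 0.0088) and 0.97 ± 0.40 in saline-exposed mice (adjusted p = 0.22). The call was lost with litter as a block (1.11 ± 0.36, adjusted p = 0.11). In the hippocampus the ranges were 26.8, 79.4 and 115 in SAL-SAL, 46.7, 101 and 229 in SAL-LPS, 31.6, 80.0 and 137 in MOR-SAL, and 70.2, 89.9 and 180.5 in MOR-LPS. These overlapped widely (0.54 ± 0.20, adjusted p = 0.12, and 0.26 ± 0.20, adjusted p = 0.65). In the PFC all 10 SAL-LPS libraries and 15 of 16 MOR-LPS libraries lay above the median of their saline group, and the log2 fold changes were 0.21 ± 0.27 (adjusted p = 0.89) and 0.85 ± 0.23 (adjusted p = 0.080). A single SAL-SAL library there measured 184, against 96.2 for the next.

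Sgk1, a serine/threonine kinase that regulates ion channels and transporters, rose in the hypothalamus of morphine-exposed mice. Its levels were 8.67, 32.0 and 184 in SAL-SAL, 0, 46.5 and 103 in SAL-LPS, 20.6, 30.4 and 89.3 in MOR-SAL, and 8.08, 64.7 and 464 in MOR-LPS. No SAL-LPS library and 6 of 14 MOR-LPS libraries lay above the highest library of their saline group. The log2 fold changes were 0.14 ± 0.39 in saline-exposed mice (adjusted p = 0.98) and 1.53 ± 0.36 in morphine-exposed mice (adjusted p = 0.0072). In the hippocampus all 16 MOR-LPS libraries (109, 146 and 289.6) lay above the MOR-SAL median (58.0, 105 and 149), with 0.56 ± 0.18 (adjusted p = 0.10). In the striatum the estimate had the other sign: MOR-LPS measured 98.7, 233 and 383 and MOR-SAL 166, 292 and 561, and only 2 of 18 MOR-LPS libraries exceeded the MOR-SAL median (-0.49 ± 0.23, adjusted p = 0.24).

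Tsc22d3 encodes GILZ, a leucine zipper protein that binds and restrains NF-kB and AP-1. In the hypothalamus it measured 14.1, 28.9 and 56.3 in SAL-SAL, 0, 31.4 and 76.0 in SAL-LPS, 17.0, 30.0 and 48.5 in MOR-SAL, and 5.33, 39.5 and 84.4 in MOR-LPS. The groups overlapped (0.20 ± 0.31, adjusted p = 0.90, and 0.46 ± 0.27, adjusted p = 0.35). In the striatum of morphine-exposed mice, 5 of 18 LPS libraries lay above the highest saline library (1.08 ± 0.49, adjusted p = 0.23). In the hippocampus MOR-LPS measured 7.47, 20.02 and 55.3 against 0, 14.2 and 22.8 in MOR-SAL (0.81 ± 0.28, adjusted p = 0.13). The saline-exposed estimates had the other sign in both regions, -0.73 ± 0.41 in the striatum (adjusted p = 0.48), where no SAL-LPS library lay above the highest SAL-SAL library, and -0.34 ± 0.27 in the hippocampus (adjusted p = 0.59).

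Zbtb16 encodes PLZF, a zinc finger repressor of transcription. In the hypothalamus its level was 4.34, 18.4 and 74.8 in SAL-SAL, 0, 28.7 and 54.7 in SAL-LPS, 5.42, 17.2 and 62.2 in MOR-SAL, and 12.0, 60.5 and 223 in MOR-LPS. The MOR-LPS median was 3.52 times that of MOR-SAL, and 7 of 14 libraries lay above the highest MOR-SAL library, against 0 of 12 in the saline exposure. The log2 fold change was 2.04 ± 0.34 in morphine-exposed mice (adjusted p = 0.00018) and 0.38 ± 0.37 in saline-exposed mice (adjusted p = 0.77). In the striatum of morphine-exposed mice it was 1.11 ± 0.49 (adjusted p = 0.22). In the hippocampus and PFC the LPS groups did not stand above the saline groups, with at most 2 LPS libraries above the highest saline library in any comparison.

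Errfi1 and Ddit4 encode brakes on growth signalling. Errfi1, also called MIG6, inhibits the epidermal growth factor receptor, and Ddit4, also called REDD1, inhibits mTORC1. In the hypothalamus of morphine-exposed mice Errfi1 measured 5.63, 11.3 and 19.3 after saline and 3.78, 24.5 and 57.6 after LPS, with 9 of 14 libraries above the highest saline library (1.01 ± 0.29, adjusted p = 0.025). In saline-exposed mice it measured 4.50, 12.1 and 39.0 after saline and 0, 8.95 and 21.4 after LPS (-0.11 ± 0.33, adjusted p = 0.98). Ddit4 measured 1.25, 5.20 and 10.8 in MOR-SAL and 2.17, 14.9 and 43.5 in MOR-LPS, again with 9 of 14 above the highest saline library (1.60 ± 0.41, adjusted p = 0.013). In saline-exposed mice it measured 0, 4.94 and 37.3 after saline and 0, 3.85 and 17.0 after LPS (-0.51 ± 0.46, adjusted p = 0.73). With litter as a block both calls were lost (Errfi1 0.74 ± 0.33, adjusted p = 0.30; Ddit4 1.45 ± 0.45, adjusted p = 0.077).

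Ddit4 also rose in the striatum of morphine-exposed mice. It measured 0, 1.78 and 3.58 in MOR-SAL and 1.46, 4.00 and 20.8 in MOR-LPS, where 17 of 18 libraries lay above the MOR-SAL median (1.89 ± 0.46, adjusted p = 0.027). With litter as a block the value was 1.49 ± 0.47 (adjusted p = 0.18). In saline-exposed mice it measured 1.42, 2.29 and 4.44 after saline and 0.454, 2.65 and 8.71 after LPS (0.39 ± 0.37, adjusted p = 0.73). Errfi1 in the striatum of morphine-exposed mice gave 0.81 ± 0.29 (adjusted p = 0.13). In the PFC of saline-exposed mice all 10 LPS libraries for Errfi1 and 9 of 10 for Ddit4 lay above the saline median, with 0.52 ± 0.48 (adjusted p = 0.79) and 1.93 ± 0.73 (adjusted p = 0.20). In morphine-exposed mice the PFC values were 0.82 ± 0.42 (adjusted p = 0.40) for Errfi1 and 1.14 ± 0.65 (adjusted p = 0.49) for Ddit4.

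Pdk4, a kinase that shuts off pyruvate dehydrogenase and so spares glucose, was near 0 in many libraries, so its counts are given first. In the hypothalamus it had a count in 3 of 11 SAL-SAL, 8 of 12 SAL-LPS, 3 of 14 MOR-SAL and 11 of 14 MOR-LPS libraries, with 70, 107, 4 and 249 summed counts. In the striatum it had a count in 10 of 13, 13 of 15, 4 of 8 and 17 of 18, with 144, 251, 28 and 865 counts. Libraries with a count were thus more frequent after LPS in both regions and exposures. In the hippocampus the numbers were 2 of 13, 6 of 14, 3 of 12 and 7 of 16, and in the PFC 4 of 10, 1 of 10, 3 of 12 and 10 of 16. The fitted log2 fold change was called in the hypothalamus of morphine-exposed mice (4.71 ± 1.04, adjusted p = 0.0048), where the saline group rests on 4 counts in total. In saline-exposed mice it was 0.68 ± 0.93 (adjusted p = 0.87), where 1 SAL-SAL library held 65 of the 70 counts (13.0 normalized CPM against a group median of 0). With each litter left out in turn that value ran from 0.03 to 3.32. It was 2.53 ± 1.01 in the striatum of morphine-exposed mice (adjusted p = 0.17).

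Plin4 encodes a perilipin of the lipid droplet coat. In the hypothalamus it measured 21.7, 47.2 and 82.0 in SAL-SAL, 0, 43.6 and 65.0 in SAL-LPS, 16.6, 35.4 and 74.8 in MOR-SAL, and 18.9, 64.4 and 233 in MOR-LPS. The rise in morphine-exposed mice was 0.80 ± 0.24 (adjusted p = 0.031), the smallest of the 8 called. It was 0.56 ± 0.23 with litter as a block (adjusted p = 0.26) and 0.81 ± 0.27 with the 2 compared groups fitted alone (adjusted p = 0.059). In saline-exposed mice no LPS library lay above the highest saline library (-0.26 ± 0.27, adjusted p = 0.79). In the striatum of morphine-exposed mice the value was 0.71 ± 0.30 (adjusted p = 0.20). Elsewhere at most 2 LPS libraries lay above the highest saline library.

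The number of members called depended on how litters were treated. No litter held both exposures. Litters with both challenges numbered 15 of 17 in the hypothalamus, 15 of 18 in the hippocampus, 11 of 17 in the PFC and 12 of 18 in the striatum. With litter as a block, 4 of the 8 hypothalamic calls in morphine-exposed mice stood (Cdkn1a 2.03 ± 0.44, Zbtb16 1.94 ± 0.32, Sgk1 1.17 ± 0.33 and Pdk4 4.75 ± 1.19), and none of the 3 in the striatum did, Cdkn1a measuring 2.33 ± 0.70 there (adjusted p = 0.17). In the averaged comparison the block left 2 of 4 calls in the hypothalamus, Cdkn1a and Zbtb16, and 1 of 3 in the striatum, Fkbp5 (0.71 ± 0.16, adjusted p = 0.026). Those lost were Fkbp5 (1.06 ± 0.28, adjusted p = 0.082) and Pdk4 (3.14 ± 0.93, adjusted p = 0.14) in the hypothalamus, and Cdkn1a (1.64 ± 0.42, adjusted p = 0.060) and Ddit4 (0.80 ± 0.30, adjusted p = 0.26) in the striatum. Cdkn1a in the hippocampus stood in that comparison (2.02 ± 0.35, adjusted p = 0.0018). With the block and without the low-depth libraries, 4 hypothalamic calls in morphine-exposed mice also stood, but Ddit4 (1.46 ± 0.39, adjusted p = 0.047) took the place of Sgk1 (1.18 ± 0.36, adjusted p = 0.082). With a correlation within litters the averaged comparison kept Cdkn1a in the hypothalamus and hippocampus and Fkbp5 in the striatum. That correlation was estimated at -0.049, -0.003, 0.004 and 0.029 in the hypothalamus, hippocampus, PFC and striatum. The fit also used limma-voom in place of edgeR, and these 2 changes cannot be told apart in the calls lost. Litter 15 mattered most: without it 4 hypothalamic calls remained, of Cdkn1a, Fkbp5, Pdk4 and Zbtb16, and none in the striatum. Without litter 14 the striatum kept Ddit4 alone. Without the low-depth libraries all 8 hypothalamic calls stood, and with the filterByExpr filter these 8 and the 3 striatal calls stood.

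**Figure D3:**
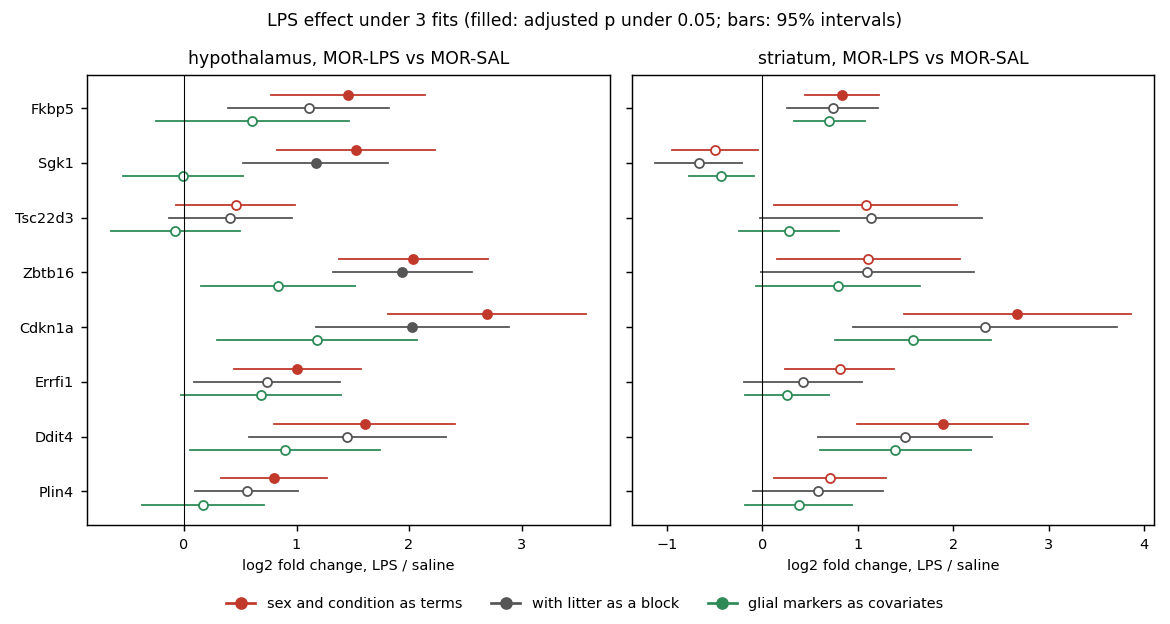
The log2 fold change of MOR-LPS over MOR-SAL (x axis) of 8 members, Pdk4 left out, in the hypothalamus and striatum under 3 fits: sex and condition as terms, litter added as a block, and summed oligodendrocyte and astrocyte markers added as covariates; bars are 95% intervals and filled points had an adjusted p under 0.05. In the hypothalamus 7, 3 and 0 of these are filled, and in the striatum 3, 0 and 0.

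Markers of glial cells moved with the members. In the hypothalamus the sum of 7 astrocyte markers was 39.5, 67.1 and 108 in MOR-SAL and 42.6, 424 and 1382 in MOR-LPS, where 11 of 14 libraries lay above the highest MOR-SAL library. Oligodendrocyte markers measured 55.5, 296 and 561 in MOR-SAL and 201, 525.99 and 5712 in MOR-LPS, with 7 of 14 above. Microglial markers, 7 genes, measured 22.1, 35.8 and 48.0 against 22.7, 45.8 and 201, also with 7 above. None of the markers in these 3 lists was at 0 throughout a hypothalamic group. In saline-exposed mice no SAL-LPS library exceeded the highest SAL-SAL library for any of the 3 lists. Single SAL-SAL libraries reached 6440 for oligodendrocytes and 738 for astrocytes. The SAL-SAL and SAL-LPS medians lay close together, at 331 and 361 for oligodendrocytes, 90.8 and 91.4 for astrocytes, and 35.2 and 31.9 for microglia. In the same order, 7, 6 and 5 of the 12 SAL-LPS libraries lay above the SAL-SAL median. In the striatum, oligodendrocyte markers measured 192, 309 and 1132 in MOR-SAL and 162, 492 and 4463 in MOR-LPS, with 6 of 18 above the highest saline library. Microglial markers there measured 12.9, 16.7 and 44.2 in MOR-SAL and 15.9, 36.5 and 236 in MOR-LPS, with 7 of 18 above the highest and 17 above the median. Astrocyte markers in the striatum had medians of 673 and 725, with 1 of 18 above the highest, and 1 of their 7 genes was at 0 throughout, as was 1 microglial gene.

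A list of 8 inflammatory genes (Nfkbia, which the wider glucocorticoid list also holds, Tnf, Il1b, Ccl2, Cxcl10, Icam1, Tnfaip3 and Socs3) moved with the members too. In the hypothalamus its sum was 5.63, 12.4 and 19.9 in MOR-SAL, where 2 of the 8 genes were at 0 throughout, and 3.39, 32.5 and 117 in MOR-LPS, with 12 of 14 libraries above the highest MOR-SAL library. In the saline exposure 2 of 12 SAL-LPS libraries lay above the highest SAL-SAL library. In the striatum of morphine-exposed mice 3 of 18 lay above the highest saline library and 16 above the median. The part of these genes in the members' rise was not tested.

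The libraries with the most Cdkn1a were also rich in glial markers. The 3 highest in the hypothalamus were MOR-LPS libraries at 132, 103 and 83.6, with oligodendrocyte sums of 1734, 5712 and 3411. In the striatum the 3 highest measured 103, 79.3 and 78.6, with sums of 2171, 2449 and 4463. Of the SAL-SAL hypothalamus libraries, the 1 with the highest oligodendrocyte sum, 6440, measured 2.33 for Cdkn1a. The same MOR-LPS animal, of litter 14, gave the highest Cdkn1a of the hypothalamus, striatum (103) and PFC (308), but 9.57 in the hippocampus.

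In a fit chosen after seeing the data, with the summed oligodendrocyte and astrocyte markers as covariates, no member was called in the hypothalamus or striatum of morphine-exposed mice, in place of 8 and 3. In the hypothalamus Sgk1 measured -0.01 ± 0.27, Plin4 0.17 ± 0.28, Zbtb16 0.83 ± 0.35 and Cdkn1a 1.18 ± 0.45 (adjusted p = 0.18). In the striatum Cdkn1a measured 1.58 ± 0.42 (adjusted p = 0.068), Ddit4 1.39 ± 0.40 (adjusted p = 0.096) and Fkbp5 0.70 ± 0.19 (adjusted p = 0.076). In saline-exposed mice the same covariates added calls: Cdkn1a in the hypothalamus (1.74 ± 0.44, adjusted p = 0.037) and striatum (1.53 ± 0.34, adjusted p = 0.024), and Fkbp5 in the striatum (0.82 ± 0.17, adjusted p = 0.0098). Averaged over exposures, Cdkn1a was called with the covariates in the same 3 regions as without, at 1.46 ± 0.32, 1.60 ± 0.35 and 1.56 ± 0.27 in the hypothalamus, hippocampus and striatum, and Fkbp5 in the hippocampus (0.40 ± 0.12, adjusted p = 0.042) and striatum (0.76 ± 0.12, adjusted p = 0.00012). Whether glial RNA carried the members or changed with them was not tested.

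**Figure D4:**
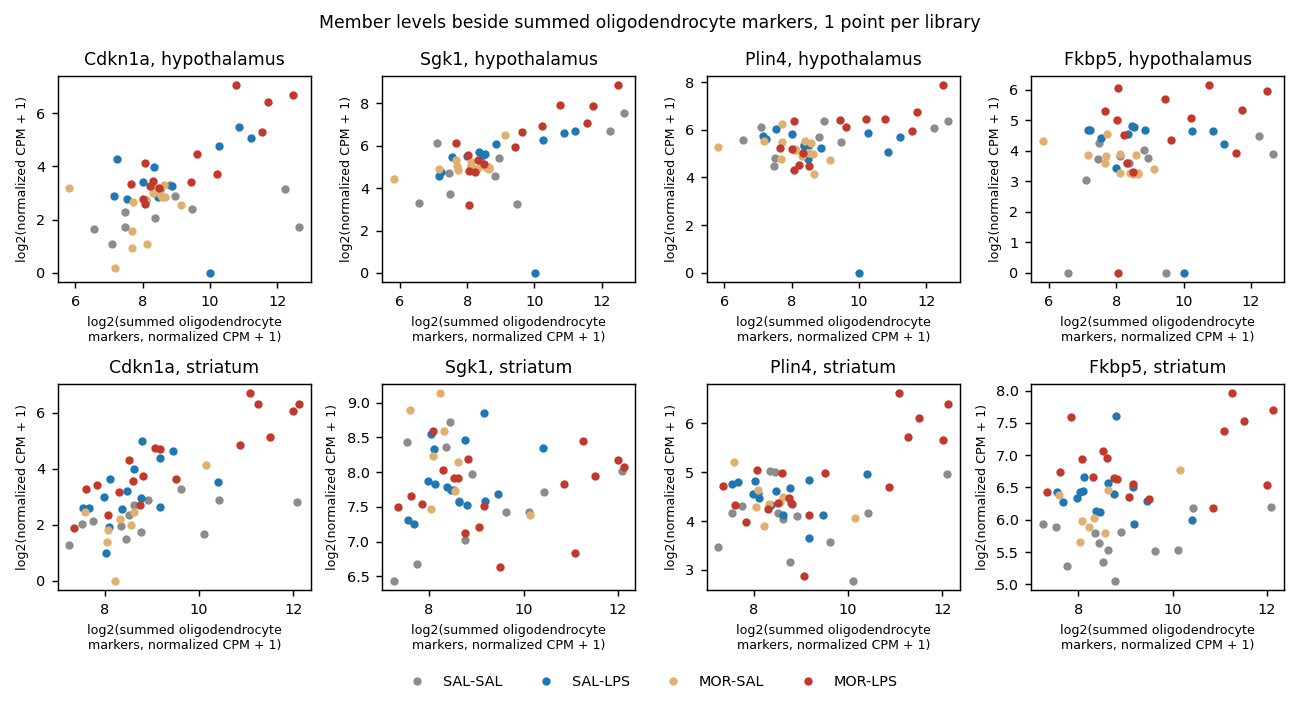
Levels of Cdkn1a, Sgk1, Plin4 and Fkbp5 against the summed level of 8 oligodendrocyte markers in the hypothalamus and striatum, both axes as log2(normalized CPM + 1), 1 point per library and a colour per group. Several MOR-LPS libraries are high on both axes, and the SAL-SAL hypothalamus library with a sum of 6440 measured 2.33 for Cdkn1a.

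Perinatal morphine by itself was followed by no called difference in any member. In the comparison of MOR-SAL with SAL-SAL, 0 of 9 members were called in each region, beside 1.44%, 0%, 0% and 0% of all genes in the hypothalamus, hippocampus, PFC and striatum. DESeq2 also called 0 in each, and 1, 1, 1 and 2 members had an unadjusted p under 0.05. In the same order of regions, 2, 6, 5 and 4 of the 9 estimates were positive, with medians of -0.38, 0.19, 0.02 and -0.35. Over all genes these medians were 0.07, -0.01, 0.01 and -0.07. Among mice given LPS, MOR-LPS exceeded SAL-LPS for Tsc22d3 in the hippocampus, with levels of 7.47, 20.02 and 55.3 against 5.17, 11.1 and 21.99 (0.97 ± 0.26, adjusted p = 0.033), beside 2.73% of all genes called in either direction. For saline-injected mice the same gene measured -0.18 ± 0.29 (adjusted p = 0.96). The Tsc22d3 call was lost with the filterByExpr filter (0.96 ± 0.26, adjusted p = 0.15), with the glial covariates (0.67 ± 0.23, adjusted p = 0.10) and without litter 3, 4, 10, 13 or 15. No member was called in the other 3 regions, beside 1.03%, 0.0046% and 0% of all genes in the hypothalamus, PFC and striatum, by edgeR or DESeq2. Unadjusted p-values were under 0.05 for 6, 2 and 8 members there. All 9 hypothalamic estimates were positive, with a median of 0.98 against 0.01 over all genes. Exposure was assigned to whole litters, so a litter block could not be fitted here. A limma-voom fit with a correlation within litters still called Tsc22d3 in the hippocampus (1.04 ± 0.24, adjusted p = 0.045). That correlation was estimated at -0.003 there, so the fit made almost no allowance for litter and does not stand in for a block.

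The test of the difference between the responses of the 2 exposures called Ddit4 and Zbtb16 in the hypothalamus and Pdk4 in the PFC. The LPS effect was larger in morphine-exposed mice by 2.12 ± 0.62 for Ddit4 (adjusted p = 0.035) and 1.66 ± 0.49 for Zbtb16 (adjusted p = 0.039), beside 3.8% of all genes called in either direction. The Pdk4 estimate, 9.67 ± 2.00 (adjusted p = 0.031, beside 1.78% of all genes), rests on a SAL-LPS group with 3 counts in 1 of 10 libraries. Both hypothalamic calls were lost without the libraries whose Y-linked genes went against their label (2.06 ± 0.66, adjusted p = 0.067, and 1.49 ± 0.51, adjusted p = 0.095). All 3 calls were lost with the filterByExpr filter, with a correlation within litters, in males alone, with limma on log2(CPM + 1) or log2(CPM + 0.1), with the glial covariates and with litter as a block, where Ddit4 measured 1.68 ± 0.69 (adjusted p = 0.41), Zbtb16 1.36 ± 0.45 (adjusted p = 0.27) and Pdk4 8.96 ± 2.37 (adjusted p = 0.48). In the hippocampus and striatum no member was called, beside 2.35% and 0.00854% of all genes. DESeq2 called 0 there too, and 1 and 4 members had an unadjusted p under 0.05. A call in morphine-exposed but not in saline-exposed mice, as for the other 6 members in the hypothalamus, is therefore not shown to be a difference between exposures.

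No member was called for a difference between females and males in its response to LPS. The share of all genes called was 0.152%, 0.707%, 0% and 0% in the hypothalamus, hippocampus, PFC and striatum, and 1, 1, 0 and 0 members had an unadjusted p under 0.05. The nearest was Plin4 in the hippocampus, with an LPS effect 1.46 ± 0.42 log2 units higher in females than males (adjusted p = 0.073). Without the libraries whose Y-linked genes went against the labelled sex, none was called in the 3 regions that had such libraries either, and this difference for Plin4 was 1.57 ± 0.45 (adjusted p = 0.079). DESeq2 was not run on this comparison.

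Differences in the LPS effect between regions were tested with limma-voom over all 208 libraries, with the animal as a random effect and 19478 genes. No member was called in any of the 6 pairs of regions. The share of all genes called was 0.0103% for hypothalamus and hippocampus, 0.133% for hypothalamus and PFC, 0.0103% for hypothalamus and striatum, 0.0359% for hippocampus and PFC, 0.0103% for hippocampus and striatum, and 0% for PFC and striatum. In the same order, 2, 2, 1, 1, 2 and 1 members had an unadjusted p under 0.05. The presence of a called member in the striatum and its absence in the PFC, for example, is therefore not a shown difference. Within regions the joint fit called 4 members in the PFC, namely Cdkn1a (1.58, adjusted p = 0.029), Ddit4 (1.26, adjusted p = 0.039), Errfi1 (1.03, adjusted p = 0.012) and Fkbp5 (0.67, adjusted p = 0.013), where the fit of that region alone called none. In the PFC of morphine-exposed mice 8 of 16 LPS libraries lay above the highest saline library for oligodendrocyte markers, 6 for astrocyte markers and 7 for microglial markers, and the part of these in the calls was not tested. The joint fit called 3.57% of all genes there in either direction, against 0.365%, 0.103% and 0.216% in the hypothalamus, hippocampus and striatum. In the striatum it called Fkbp5 (0.81, adjusted p = 0.0014), and in the hypothalamus and hippocampus no member, where 6 and 2 had an unadjusted p under 0.05.

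Members were also compared within animals, across regions, after the mean of each condition had been removed from log2(normalized CPM + 1). Of 54 relations, 43 were positive, with a median Pearson's r of 0.17, and 4 passed the correction by a permutation test within conditions. Fkbp5 was related between hippocampus and striatum (r = 0.44, adjusted p = 0.043, Spearman's rho 0.41, adjusted p = 0.074, 42 animals, r = 0.51 without the 2 farthest) and between PFC and striatum (r = 0.59, adjusted p = 0.026, rho 0.53, adjusted p = 0.072, 35 animals, r = 0.59 without the 2 farthest). Plin4 was related between hypothalamus and hippocampus (r = 0.46, adjusted p = 0.020, rho 0.57, adjusted p = 0.0076, 38 animals), with r = 0.60 without the 2 farthest. Pdk4 was related between hypothalamus and striatum (r = 0.63, adjusted p = 0.026, rho 0.51, adjusted p = 0.074, 37 animals), with r = 0.47 without the 2 farthest. Animals of a litter are not independent, and these p-values do not allow for that.

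A wider list of 20 other glucocorticoid-responsive genes was counted in the same way. In the hypothalamus of morphine-exposed mice 13 of 20 were called higher and none lower, with a median log2 fold change of 1.49 against 0.00 over all genes, beside the 4.1% of all genes called higher. The 13 were Angptl4, Arrdc2, Bcl6, Cebpb, Cebpd, Hif3a, Irs2, Klf15, Klf9, Lcn2, Mfsd2a, Mt1 and Nfkbia. In the striatum of that exposure, where 0.845% of all genes were called higher, 5 were called higher (Cebpd, Hif3a, Klf15, Lcn2 and Mfsd2a), in the hippocampus, beside 0.109% of all genes, 1 (Arrdc2), and in the PFC, beside 0.0138%, none. In saline-exposed mice Lcn2 alone was called, in the hypothalamus (5.63 ± 1.22, adjusted p = 0.032) and striatum (5.64 ± 0.96, adjusted p = 0.0055), and neither call stood with litter as a block (5.14 ± 1.25, adjusted p = 0.11, and 5.07 ± 0.98, adjusted p = 0.065). With litter as a block 8, 1 and 0 of the list were called in the hypothalamus, striatum and hippocampus of morphine-exposed mice. With the glial covariates these numbers were 4, 2 and 1, beside 566 of 28859, 77 of 23426 and 187 of 22076 genes called in either direction. In saline-exposed mice that fit called 2, 2 and 1 of the list higher, beside 264, 113 and 733 of all genes. The test of the difference between exposures called 6 of the 20 in the hypothalamus, beside 3.8% of all genes in either direction. All 6 effects were larger in morphine-exposed mice, and none was called in the other regions. All 20 hypothalamic estimates were positive, with a median of 1.58. The number called was 3 with the filterByExpr filter, 1 with litter as a block and 0 with the glial covariates. For MOR-SAL against SAL-SAL in the hypothalamus, 5 of the 20 estimates were positive, with a median of -0.64. There 1 gene of the list was called lower, beside 1.44% of all genes called in either direction. Lcn2 and Cebpd also respond to cytokines, which LPS induces.

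Arrdc2, an arrestin-domain protein gene, rose from 1.03, 5.24 and 8.09 in MOR-SAL to 5.72, 24.6 and 217 in MOR-LPS in the hypothalamus (2.93 ± 0.42, adjusted p = 1.4e-05), and by 2.08 ± 0.42 in the hippocampus (adjusted p = 0.022, and 0.0501 with litter as a block). With the glial covariates it was called in both regions (1.59, adjusted p = 0.0068, and 1.41, adjusted p = 0.035). Hif3a, a hypoxia-inducible factor subunit, rose from 0.432, 2.41 and 7.82 to 2.17, 23.2 and 108 in the hypothalamus (3.12 ± 0.52, adjusted p = 0.00018), and by 2.38 ± 0.53 in the striatum (adjusted p = 0.019). Klf15, a transcription factor of amino acid metabolism, rose by 1.16 ± 0.29 in the hypothalamus (adjusted p = 0.011) and 1.34 ± 0.29 in the striatum (adjusted p = 0.018). Its hypothalamic estimate was -0.16 with the glial covariates. Mfsd2a, a lipid transporter of the blood-brain barrier, rose by 2.61 ± 0.62 and 2.32 ± 0.64 in the same regions (adjusted p = 0.0088 and 0.048). With litter as a block Klf15 (0.80 and 1.26, adjusted p = 0.21 and 0.069) and Mfsd2a (2.28 and 2.13, adjusted p = 0.081 and 0.20) were no longer called in either region, nor was Hif3a in the striatum (1.87, adjusted p = 0.18). Lcn2, which encodes the acute-phase protein lipocalin 2, had hypothalamic medians of 0, 1.82, 0 and 7.16 in SAL-SAL, SAL-LPS, MOR-SAL and MOR-LPS, and Cebpd medians of 0, 0.974, 0.178 and 7.27.

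The receptors and the enzymes and chaperones that serve them, a list of 10 genes of which 10 were tested in the hypothalamus and 9 elsewhere, held no called gene after LPS in any region or exposure, where 0 of 21729 (PFC, saline exposure) to 1809 of 28859 genes (hypothalamus, morphine exposure) were called in either direction, so little can be read from a count of 0 in so short a list. Nr3c1 in the hypothalamus measured 32.0, 74.9 and 122 in SAL-SAL and 0, 51.8 and 65.6 in SAL-LPS (-0.79 ± 0.23, adjusted p = 0.073). With the glial covariates it was called lower (-0.82, adjusted p = 0.043). In morphine-exposed mice it measured 19.9, 51.3 and 76.6 after saline and 32.0, 49.1 and 102 after LPS (0.15 ± 0.20, adjusted p = 0.75). Nr3c2 in the hippocampus had medians of 737 in SAL-SAL and 397 in SAL-LPS (-0.62 ± 0.22, adjusted p = 0.099).

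Genes whose levels followed the mean of the members were ranked by Pearson's r over the libraries of a region, after removing the mean of each condition. Pdk4 was left out, so the mean held 8 members. In the hypothalamus the nearest were Usp54 (r = 0.89), Zfp276 (0.88) and Mast3 (0.87) of 13152 genes over 51 libraries, and without the low-depth libraries these were 0.77, 0.77 and 0.74. In the hippocampus they were Aff1 (0.69), Zcchc24 (0.68) and Bcl2l1 (0.68), and in the striatum Bcl2l1 (0.87), Mbp (0.83) and Abca1 (0.83). Mbp encodes a protein of myelin and was among the oligodendrocyte markers. The points share library depth and composition, and no test was made.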

How the data were processed

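The authors sorted NeuN+ nuclei of each region, made libraries by a modified Smart-seq3 protocol, trimmed reads with Trim Galore 0.6.7, aligned them to mm10 with STAR 2.7.10a using GENCODE vM25, and checked the counts with HTSeq 0.12.4. They deposited, for each region, raw counts of 46403 genes and a CPM table of 46366 genes. The CPM values were recomputed from the deposited counts without the 37 mitochondrial genes (within 1e-06) and are scaled to the library total. The study's methods name STAR's GeneCounts mode, which counts reads over exons; the strand setting is not given in the sources used here. The regions' tables were normalized separately. No unused sample column was found.

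Counts were fitted per region in edgeR 4.0.16 (R 4.3.3) by glmQLFit and glmQLFTest after TMM scaling, with sex and condition as terms, as in the authors' DESeq2 design, over genes with a total count above 10. All animals with a group label were used. DESeq2 1.42.0, limma 3.58.1, other filters, scalings and pseudocounts, each sex alone, litter as a block and each litter left out were alternatives; the averaged LPS effect, the further alternatives for the difference between exposures, the block without low-depth libraries and the glial covariates were added after the data were seen. The scripts were tested on simulated data. The members, the 20 other glucocorticoid-responsive genes, the 10 receptor-related genes and the marker lists were chosen with earlier results of these data known. Of the wider list, genes called in at least 2 regions are named with values.

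Replicate labels give litter and animal, per the study's supplement. The study's methods count more distinct litters than the 18 numbers in the labels, and every litter fit here rests on the labels. Nearly all of these numbers hold animals of a single sex by their labels, so litter and sex are largely tied together in these fits. Over all genes, the mean correlation of deviations from the condition mean was -0.033 within litters and 0.007 between them in the hypothalamus, -0.023 and 0.004 in the hippocampus, -0.0003 and 0.003 in the PFC and 0.059 and -0.006 in the striatum. Animals are separate, so p-values measure the spread between animals. The main fits take animals of a litter as independent, also in the comparisons of exposures, which were assigned to whole litters. No pair of libraries held identical values. A floor for a count of 0 is 3 counts of the library total and covers counting error only, since the tables do not say whether molecular identifiers were used. The genes most like the members in the PFC are not reported here.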

Additional observations from a re-analysis of the deposited data

Results flagged for a closer look

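Of 27 pairs of a member and a group of 4 to 10 libraries, 9 held a highest library that stood apart by Dixon's criterion. Its chance rate of about 1 in 20 holds for independent groups of normally distributed values. These levels were not on a log scale and the pairs share libraries, so the 9 cannot be set against that rate. All 9 were single high values. In the PFC, SAL-SAL animal 5-1 measured 184 normalized CPM for Fkbp5 (next 96.2) and 675 for Sgk1 (next 242). For Pdk4, SAL-SAL animal 9-4 measured 8.13 (next 1.56) and SAL-LPS animal 9-1 measured 0.288 where the other 9 libraries were at 0. For Tsc22d3, SAL-LPS animal 1-4 measured 136 (next 56.1). In the striatum, MOR-SAL animal 17-2 stood apart for Cdkn1a (16.5, next 4.53), Tsc22d3 (27.2, next 12.5) and Pdk4 (2.02, next 0.472), and MOR-SAL animal 12-1 for Plin4 (36.0, next 23.8). These groups held 8 or 10 libraries.

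The response to LPS differed between the exposures, by the test of that difference, for 3 pairs of a member and a region. It was larger in morphine-exposed mice by 1.66 log2 units for Zbtb16 and 2.12 for Ddit4 in the hypothalamus, and by 9.67 for Pdk4 in the PFC. None of these calls stood with litter as a block.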

How the results depend on the processing

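Of the log2 fold changes under the alternatives, 931 kept direction and side of the threshold, 164 lost their call, 17 gained one and 21 changed sign. All 288 medians kept within the spread between libraries. The cause of each change was not tested.

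Of the 8 members called in the hypothalamus of morphine-exposed mice after LPS, the number was 4 with litter as a replicate block, 4 with the block and without low-depth libraries, 3 with a correlation within litters, 7 with the compared groups alone (Plin4 0.81 ± 0.27, adjusted p = 0.059), 5 in females, 3 in males, 3 on log2(CPM + 1), 1 on log2(CPM + 0.1) and 0 with glial covariates. Leaving out 1 litter gave 4 to 8. In the striatum the 3 calls became 0 with the litter block, 1 with the correlation, 0 in males, 0 with the compared groups alone, 5 on log2(CPM + 0.1) and 0 with glial covariates, and 0 to 3 without 1 litter. In the hippocampus of morphine-exposed mice the count of 0 became 1 without the libraries whose Y-linked genes go against their label. In saline-exposed mice the 1 hippocampal call became 0 with the block, filterByExpr, the correlation, either sex, the compared groups alone or either pseudocount, and 0 to 1 without 1 litter. The count of 0 in their striatum became 1 by DESeq2, 1 with the compared groups alone, 2 with glial covariates and 0 to 1 without 1 litter, and in their hypothalamus 1 with glial covariates.

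Averaged over exposures, the hypothalamic 4 became 2 with the block, 2 with the block and without low-depth libraries, 2 with glial covariates, 1 with the correlation, 1 in females, 1 on log2(CPM + 1) and 0 on log2(CPM + 0.1), and the striatal 3 became 1 with the block, 1 with the correlation and 0 in males. The hippocampal 1 became 2 with glial covariates, 2 without the Y-linked mismatches and 0 in females (1 to 2 without 1 litter), and the 0 of the PFC became 1 with library size as the scaling, 1 with no sex term and 1 with either pseudocount (0 to 1 without 1 litter). In MOR-SAL against SAL-SAL the hypothalamic 0 became 1 with no sex term, 1 in females and 0 to 1 without 1 litter. In MOR-LPS against SAL-LPS it became 1 with no filter, 3 with library size as the scaling, 1 with no sex term and 0 to 1 without 1 litter, while the hippocampal 1 became 0 with filterByExpr, in males, with the compared groups alone, with either pseudocount and with glial covariates, and 0 to 1 without 1 litter. For the difference between exposures, the hypothalamic 2 and the PFC's 1 became 0 with filterByExpr, with the block, with the block and without low-depth libraries, with the correlation, in males, with either pseudocount and with glial covariates. The hypothalamic count was also 0 without the Y-linked mismatches but 5 in females, and the PFC's 0 in females. Without 1 litter they were 0 to 4 and 0 to 1, and the hippocampal 0 was 0 to 1. Of the 4 relations within animals 2 passed with a pseudocount of 0.1. For the members, the block changed no call other than those given here or in the report.

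Changes of sign fell mostly in the hypothalamus of saline-exposed mice. Sgk1 there measured -0.33 in females, -0.017 with library size as the scaling, -0.33 on log2(CPM + 0.1), -0.059 on log2(CPM + 1) and -0.026 without low-depth libraries. Tsc22d3 measured -0.38 in females, -0.98 and -0.67 with pseudocounts of 0.1 and 1, Zbtb16 -0.050 in females and -0.14 with a pseudocount of 0.1, and Pdk4 -0.83 in females. Errfi1 measured 0.15 with the correlation and 0.82 in males, and Ddit4 0.0087 with the correlation, 0.013 on log2(CPM + 0.1) and 0.44 in males. With glial covariates Sgk1, Tsc22d3 and Klf15 measured -0.010, -0.079 and -0.16 in the hypothalamus of morphine-exposed mice. Fkbp5 measured -0.10 in hippocampus of morphine-exposed males, and Tsc22d3 0.41 in hippocampus of females, MOR-SAL against SAL-SAL.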
